A study of Mus musculus with 8 samples.

Results

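This set holds the genes whose signal went up step by step through 72 h of tamoxifen in a mouse pituitary cell line that carries ER-Pax7. A gene was taken when its mean signal over the 8 libraries was at least 1, both 72 h libraries lay above both 0 h libraries, and the group means stood in the order 0, 24, 48 and 72 h. The ratio of the 72 h mean to the 0 h mean had to be at least 1.3, and that of the 72 h mean to the 24 h mean at least 1.15. Of 55401 genes, 9606 had a mean of at least 1 and 124 of these met the rule. Leaving out 10 genes by name (Mest, Copg2, Rgs4, Mfge8, Enpp2, Amotl2, Ahsg, Fetub, Odc1 and Rab27a) gave 114 genes. The rule used the values of all 8 libraries, so the rise itself, its order in time and its size are given as descriptions and support nothing.

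The cells were AtT-20, a mouse corticotrope tumour line that makes the hormone precursor Pomc, with the label ER-Pax7 on every library, the 0 h libraries included. Tamoxifen was given for 24, 48 or 72 h, the 0 h libraries carry no treatment label, and each of the 4 groups had n = 2 libraries. The protocol in the labels describes extracted RNA with ribosomal RNA depleted, but the field for the molecule says genomic DNA, and the values were taken as RNA. The labels do not say whether the replicates were separate cultures. Because no library used here came from cells without ER-Pax7 or from untreated cells kept for matched hours, the effects of ER-Pax7, of tamoxifen and of hours in culture cannot be told apart.

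Pax7 is a pioneer transcription factor: it can bind sites in closed chromatin and open them for other factors. In the pituitary it sets the melanotrope fate, in which cells use the same Pomc gene as corticotropes but process its product differently. The series title concerns DNA demethylation driven by this factor. In an ER fusion, a hormone-binding domain of the estrogen receptor holds the protein inactive until tamoxifen binds. Values are the deposited signal. From the values it was read as a mean coverage per base over the exons of a gene, which the sources used here do not state, and levels of genes of different length are compared on that reading only.

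The rise was modest in most of the 114 genes. The ratio of the 72 h mean to the 0 h mean had a median of 1.42 and ran from 1.303 to 2.75, with 7 genes at 2 or more, 33 between 1.5 and 2, and 74 under 1.5. Levels were low as well: the mean over the 8 libraries was under 2 in 59 genes, between 2 and 5 in 26, and at least 5 in 29, and its median was 1.91, against 2.65 over the 9606 genes. Of the 114 genes, 89 (78.1%) code for proteins, against 81.9% of the 9606.

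The share of the log2 rise made in each step was taken per gene, with a separate median for each step. These medians were 36.3% from 0 to 24 h, 27.2% from 24 to 48 h, and 31.3% from 48 to 72 h. The largest single step was the first in 49 genes, the middle one in 33 and the last in 32. Wnt10a, a secreted Wnt ligand, had 76.6% of its rise after 48 h.

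**Figure D1:**
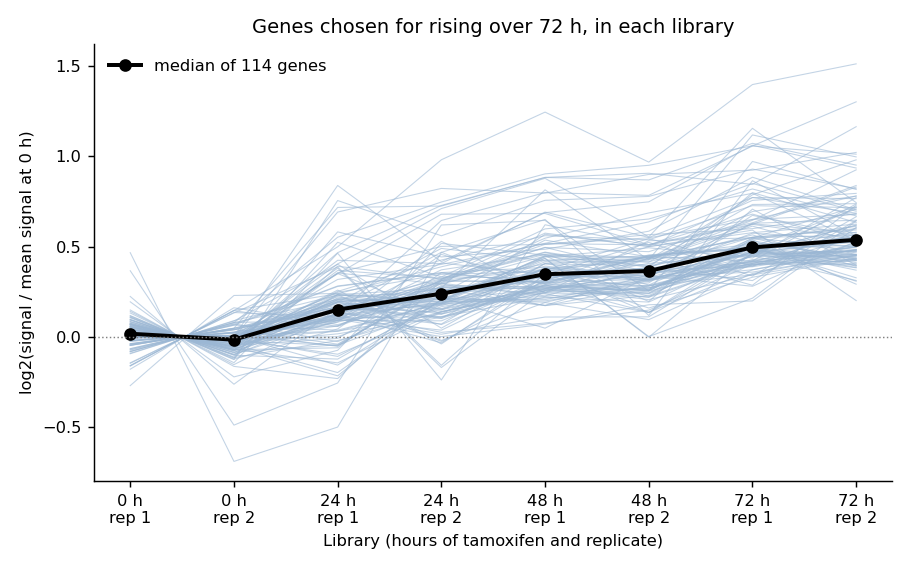
Each thin line is 1 of the 114 genes, drawn over the 8 libraries in order of time and replicate as log2 of its signal over its own mean at 0 h; the thick line is the median. The median line climbs at each time, and at 24 h it is lower in replicate 1 than in replicate 2.

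A linear model over all tested genes (limma on log2(signal + 1), Benjamini-Hochberg adjusted p under 0.05) called 64 of the 114 genes higher at 72 h than at 0 h, where it called 122 of all 9606 genes higher (1.27%). At 48 h against 0 h it called 11 genes of the set, with 0.323% of all genes called higher, among them Entpd3, Zfp750, Parp16, Dab2ip, Ephx1, Olfm1, Zfp275, Gpx3, Nelfcd and Gstp-ps. At 24 h against 0 h it called 1 gene of the set, with 0.115% of all genes called higher. Against 24 h, limma called 0 genes of the set at 72 h (0.0208% of all genes called higher, 94 genes of the set with an unadjusted p under 0.05) and 0 at 48 h (0% of all genes, 32 genes of the set with an unadjusted p under 0.05). Between 72 h and 48 h limma again called 0 genes (0% of all genes, 34 genes of the set with an unadjusted p under 0.05). The rule used these contrasts and 3 of them share the 0 h libraries, so nothing is read from the counts. The 72 h count was 2 without 0 h replicate 1 and 0 without 0 h replicate 2, and it was 5 and 8 without 72 h replicate 1 and 2, 33 and 32 without 48 h replicate 1 and 2, and 82 without either 24 h library.

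In 44 of the 114 genes (38.6%) the single libraries were in strict order, both of each time above both of the time before, which held in 0.75% of the 9606 genes. Both 72 h libraries above both 0 h libraries, a clause of the rule, held in 27.4% of them. Both 24 h libraries were above both 0 h libraries in 72 genes (24.4% of all genes), both 48 h above both 24 h in 69 (15.7% of all genes), and both 72 h above both 48 h in 93 (23% of all genes). The order of means is part of the rule, so these shares describe how far it held in single libraries.

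Where each library stood between a gene's 0 h mean (0%) and its 72 h mean (100%) shows the pace by replicate. The median position was 23.3% in 24 h replicate 1 and 39.4% in 24 h replicate 2, then 63.9% and 64.8% at 48 h, and 97.5% and 102.5% at 72 h. The 48 h libraries therefore stood side by side, while the 24 h libraries did not. Of the 114 genes, 77 (67.5%) were higher in 24 h replicate 2 than in replicate 1, against 41.9% of all 9606 genes, and at 72 h 70 genes (61.4%) were higher in replicate 2, against 45.04%. At 0 h the shares were 35.1% and 34.97%, and at 48 h 50.9% and 51.5%. In 30 genes, 24 h replicate 1 lay below at least 1 of the 0 h libraries, and in 32 genes 24 h replicate 2 lay above at least 1 of the 48 h libraries. Ribosomal RNA also differed between replicates: mt-Rnr1, the small mitochondrial ribosomal RNA, had 1.301 and 2.2002 at 0 h, 1.14 and 3.43 at 24 h, 2.21 and 5.97 at 48 h, and 1.23 and 25.1 at 72 h. It was higher in replicate 2 at all 4 times, by amounts that differed between times, and its part in the positions was not tested.

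**Figure D2:**
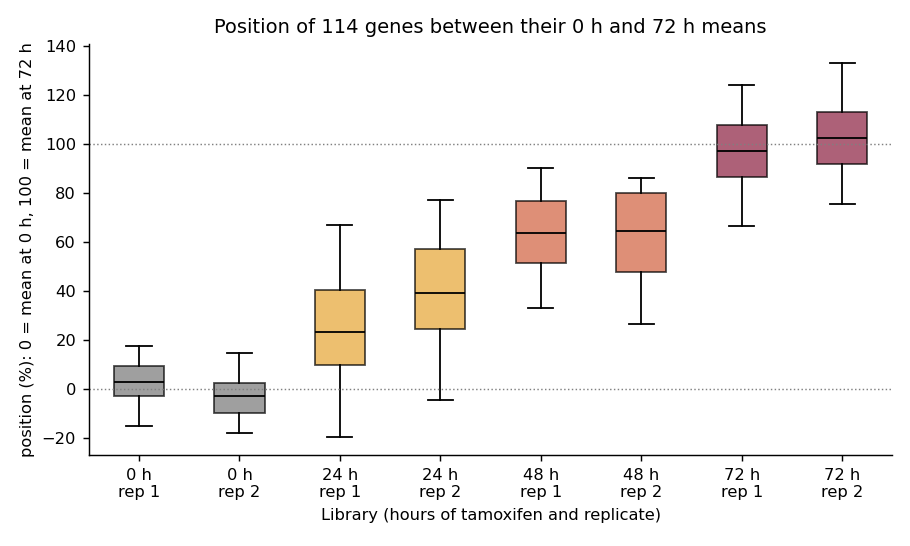
Boxes show the quartiles and whiskers the 5th and 95th percentiles of the position of the 114 genes in each library, in percent of the way from a gene's 0 h mean to its 72 h mean. The 2 boxes at 48 h have near-equal medians (63.9% and 64.8%), whereas those at 24 h differ (23.3% and 39.4%).

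Applying the rule to 1 replicate leaves the values of the other outside that choice. The set was chosen with earlier results of these data known, so what follows is a description. The rule without its replicate clause chose 120 genes on the replicate 1 libraries. In the replicate 2 libraries 102 of them (85%) were higher at 72 h than at 0 h, against 54.0% of all tested genes, and 50 (41.7%) stood in the full order of the 4 times, against 8.35%. Chosen on replicate 2, 162 genes were taken, and 140 of them (86.4%) were higher at 72 h in replicate 1, against 50.7% of all tested genes, with 48 (29.6%) in full order, against 4.78%. Both choices took 32 genes, which is 26.7% of the first and 19.8% of the second. Most genes kept the direction from 0 to 72 h in the libraries not used, and fewer kept the order of the times between. Since the labels do not say whether the replicates were separate cultures, this is not taken as a repeat of the rise.

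Steepest among the genes with a mean between 1 and 5 was Galns, the lysosomal sulfatase that removes sulfate from keratan sulfate and chondroitin sulfate (ENSMUSG00000015027.11, chromosome 8, 122578242 to 122611463, GRCm38). Its signal was 0.586 and 0.724 at 0 h, 0.926 and 1.29 at 24 h, 1.55 and 1.28 at 48 h, and 1.73 and 1.87 at 72 h, a ratio of 2.75. Both 0 h libraries lay below the other 6, and the 24 h and 48 h libraries overlapped. Entpd3, an ectoenzyme that hydrolyses nucleoside triphosphates outside the cell (chromosome 9, 120539818 to 120568327), had 0.563 and 0.629 at 0 h, 0.873 and 0.9999 at 24 h, 1.11 and 1.15 at 48 h, and 1.24 and 1.47 at 72 h, in strict order, with a ratio of 2.27. Ttyh1, a membrane protein of neural cells, went from 1.08 ± 0.101 at 0 h to 2.24 ± 0.134 at 72 h (mean ± SD, n = 2; ratio 2.08), and its libraries were in strict order too.

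Rhou, a small GTPase that acts on the actin cytoskeleton (chromosome 8, 123653929 to 123663884), had 1.04 and 0.942 at 0 h, 1.08 and 1.55 at 24 h, 1.72 and 1.702 at 48 h, and 2.06 and 1.99 at 72 h, and no group overlapped the next. For Zfp750, a zinc finger factor known for epidermal differentiation, the values were 0.912 and 0.974 at 0 h, 1.55 and 1.56 at 24 h, 1.74 and 1.77 at 48 h, and 1.69 and 2.12 at 72 h. Here 72 h replicate 1 was below both 48 h libraries, so the late step rests on replicate 2. Parp16, a mono-ADP-ribosyltransferase of the endoplasmic reticulum membrane, had 0.802 and 0.764 at 0 h, 1.08 and 1.297 at 24 h, 1.44 and 1.43 at 48 h, and 1.65 and 1.51 at 72 h in strict order (ratio 2.02). In the 0 h libraries of Galns, Entpd3, Zfp750 and Parp16 the signal was under 1, so these ratios start from low levels. All exonic bases of Galns, Rhou and Zfp750 lie within the span of other genes, introns included, as do 86.3% of those of Ttyh1. Since the use of strand is not given, reads of those other genes may be counted there.

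**Figure D3:**
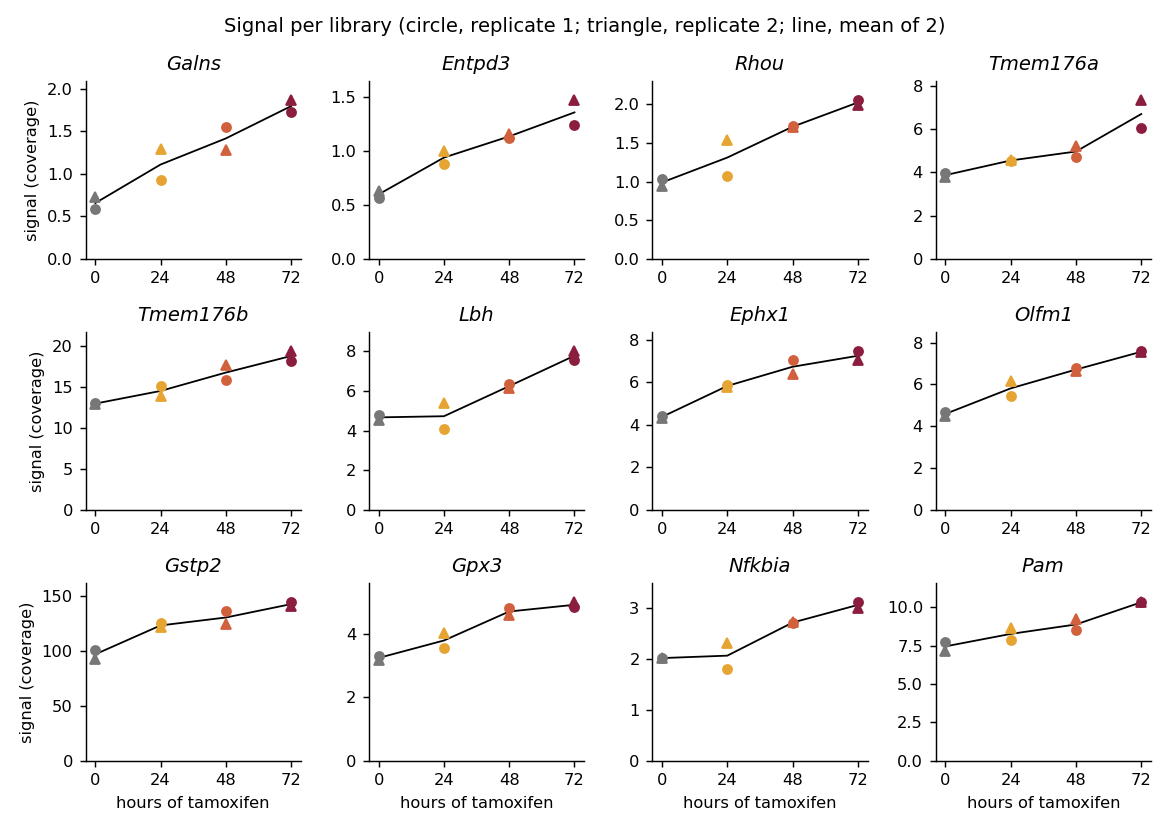
Signal of 12 genes against hours of tamoxifen; circles are replicate 1, triangles replicate 2, and the line joins the means of the 2 libraries. Axes start at 0. Lbh and Nfkbia are near their 0 h level at 24 h and higher at 48 and 72 h.

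Tmem176a and Tmem176b, adjacent genes of intracellular membrane proteins known mostly from immune cells, share a divergent start (chromosome 6, 48840919 to 48847071 and chromosome 6, 48833818 to 48841496). Tmem176a had 3.98 and 3.77 at 0 h, 4.54 and 4.58 at 24 h, 4.702 and 5.24 at 48 h, and 6.06 and 7.36 at 72 h (ratio 1.73), and Tmem176b had 13.1 and 12.9 at 0 h, 15.1 and 13.9 at 24 h, 15.8 and 17.7 at 48 h, and 18.2 and 19.4 at 72 h (ratio 1.45). Both genes were in strict order, and both were lower at 48 h in replicate 1 than in replicate 2. They share few exonic bases (2.13% of Tmem176a and 3.42% of Tmem176b lie in exons of another gene). Olfm1, which codes for the secreted neuronal glycoprotein olfactomedin 1, had 4.68 and 4.49 at 0 h, 5.46 and 6.16 at 24 h, 6.76 and 6.66 at 48 h, and 7.59 and 7.53 at 72 h, in strict order (ratio 1.65).

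Pam, the enzyme that amidates the ends of peptide hormones in secretory granules (chromosome 1, 97795114 to 98095646), had 7.73 and 7.17 at 0 h, 7.88 and 8.64 at 24 h, 8.504 and 9.25 at 48 h, and 10.3 and 10.3 at 72 h. Its 72 h libraries were nearly equal and above the other 6, and the 24 h and 48 h libraries overlapped. On a list of secretory granule and exocytosis genes, 30 were tested, and 3 (Pam, Tmem176a and Tmem176b) belong to the set. At 72 h against 0 h limma called 3 of the 30 higher and 3 lower, the lower ones being Chgb, Sytl4 and Snap25. Over all genes it called 1.27% higher and 0.739% lower. The list's median log2 change was 0.02, against 0.01 over all tested genes. Chgb, a granin that packs secretory granules, fell from 87.5 ± 0.2596 at 0 h to 66.5 ± 2.48 at 72 h. The set holds 114 of all 9606 genes, and 0 of 8 tested neuronal markers belong to it. limma called 1 of them higher at 72 h (Elavl3) and 1 lower (Snap25), 2 of the 8 had a log2 change above 0, and the median was -0.11.

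Other genes of membrane traffic and processing had smaller ratios. Ece1, an endothelin-converting peptidase, had 3.18 and 2.89 at 0 h, 3.41 and 3.797 at 24 h, 4.205 and 3.97 at 48 h, and 4.45 and 4.60001 at 72 h in strict order (ratio 1.49). Litaf, a membrane protein of late endosomes and lysosomes, went from 6.62 ± 0.0317 at 0 h to 9.36 ± 0.07497 at 72 h, Atp9a, a phospholipid flippase of endosomes, from 2.76 ± 0.0177 at 0 h to 3.904 ± 0.0614 at 72 h, and Anxa7, a calcium-dependent membrane-binding annexin, from 1.81 ± 0.0123 at 0 h to 2.45 ± 0.0455 at 72 h (SD, n = 2). Hpcal1, a neuronal calcium sensor, went from 5.93 ± 0.488 at 0 h to 8.03 ± 0.702 at 72 h. The libraries of Litaf and Atp9a were in strict order, those of Anxa7 and Hpcal1 were not. Of 41 tested lysosomal genes on a list, which does not hold Galns or Litaf, 0 met the rule. The set holds 114 of all 9606 genes.

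Genes that handle reactive or foreign molecules formed another group. Ephx1, the microsomal epoxide hydrolase (chromosome 1, 180976210 to 181020904), had 4.42 and 4.32 at 0 h, 5.86 and 5.78 at 24 h, 7.05 and 6.39 at 48 h, and 7.46 and 7.02 at 72 h (ratio 1.66), and every library of a later time lay above both 0 h libraries. Gpx3, the secreted glutathione peroxidase, had 3.29 and 3.18 at 0 h, 3.53 and 4.03 at 24 h, 4.81 and 4.57 at 48 h, and 4.82 and 4.98 at 72 h, in strict order (ratio 1.52). Gstp2, a glutathione S-transferase of the pi class (chromosome 19, 4040285 to 4046023), had 101 and 92.6 at 0 h, 125 and 121 at 24 h, 136 and 124 at 48 h, and 144 and 141 at 72 h, the highest level of any protein-coding gene of the set. The 0 h libraries of Gstp2 were apart from the rest and the 24 h and 48 h libraries overlapped. The processed pseudogene Gstp-ps (chromosome 1, 192073820 to 192074450) followed it at a lower level, with 19.05 and 17.5 at 0 h, 23.3 and 22.3 at 24 h, 24.9 and 24.7 at 48 h, and 26.7 and 26.97 at 72 h.

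Gstp1 had 109 and 101 at 0 h, 135 and 136 at 24 h, 149.5 and 137 at 48 h, and 151 and 156 at 72 h, a course close to that of Gstp2. It missed the rule because its ratio of 72 h to 24 h was 1.14. Gstp1, Gstp2 and Gstp-ps are near-identical copies and the reads of one can be given to another, so their separate values are uncertain. Gstp3, a more distant copy, was lower at 72 h, going from 2.13 ± 0.0594 at 0 h to 1.68 ± 0.00614 at 72 h. Of 23 tested genes of glutathione and xenobiotic metabolism, limma called 4 higher at 72 h (Ephx1, Gpx3, Gstp1 and Gstp2) and 1 lower (Gstm2), where 1.27% of all genes were called higher and 0.739% lower. Ephx1, Gpx3 and Gstp2 belong to the set, which holds 114 of all 9606 genes, and were chosen on this contrast. The others were not called: Nfe2l2, the main factor of the oxidative response, went from 2.38 ± 0.0246 at 0 h to 2.47 ± 0.0319 at 72 h, Hmox1, which breaks down heme, from 2.11 ± 0.177 at 0 h to 2.18 ± 0.0487 at 72 h, and Gclc, whose product makes the glutathione precursor, from 2.36 ± 0.00935 at 0 h to 2.26 ± 0.186 at 72 h. G6pdx, which makes NADPH in the pentose phosphate pathway, was in the set at 3.29 ± 0.0756 at 0 h to 4.37 ± 0.04496 at 72 h, and so was Aldh3b1, an aldehyde dehydrogenase, at 1.47 ± 0.0191 at 0 h to 2.12 ± 0.458 at 72 h.

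Signalling genes of the set included parts of the NF-kB system, in which Rel proteins such as Rela are held in the cytoplasm by IkB proteins. Nfkbia, the IkB alpha gene and itself a classic NF-kB target (chromosome 12, 55489410 to 55492647), had 2.01 and 2.02 at 0 h, 1.804 and 2.32 at 24 h, 2.701 and 2.71 at 48 h, and 3.11 and 2.999 at 72 h (ratio 1.52). In Nfkbia 24 h replicate 1 lay below both 0 h libraries, and the 48 h and 72 h pairs each lay above all earlier libraries. Bcl3, an atypical IkB that works with NF-kB in the nucleus, had 2.398 and 2.09 at 0 h, 2.46 and 2.65 at 24 h, 2.95 and 2.82 at 48 h, and 3.47 and 3.51 at 72 h, in strict order (ratio 1.56). Rela, the p65 subunit, had 1.67 and 1.46 at 0 h, 1.66 and 1.88 at 24 h, 1.76 and 1.83 at 48 h, and 2.204 and 2.08 at 72 h, and here only the 72 h libraries stood apart from the rest.

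The rest of that family was picked for comparison after the values were seen. Among the Rel and IkB genes that were tested, Nfkb1 and Nfkbib had ratios of 1.19 and 1.196 and missed the rule. Relb was under the mean of 1, with 0.303 and 0.355 at 0 h, 0.393 and 0.272 at 24 h, 0.534 and 0.417 at 48 h, and 0.6098 and 0.619 at 72 h, and Rel was at 0.493 ± 0.0142 at 0 h to 0.4996 ± 0.0161 at 72 h. The set as a whole holds 114 of all 9606 genes. Of 12 tested MHC class I and antigen presentation genes and of 7 tested interferon-induced genes, 0 met the rule. Irgm2 and Ly6e, which are known to be induced by interferon but are not on that list, do belong to the set. Irgm2, an immunity-related GTPase, had 0.784 and 0.675 at 0 h, 1.05 and 0.918 at 24 h, 1.104 and 1.15 at 48 h, and 1.29 and 1.16 at 72 h (ratio 1.68), and Ly6e, a membrane-anchored surface protein, went from 8.37 ± 0.131 at 0 h to 11.6 ± 0.331 at 72 h.

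Dual specificity phosphatases, many of which switch off MAP kinases, gave 3 genes of the set, which holds 114 of all 9606 genes. Dusp4 had 5.12 and 4.93 at 0 h, 5.24 and 6.17 at 24 h, 5.66 and 6.12 at 48 h, and 6.38 and 6.797 at 72 h (ratio 1.31), with 24 h replicate 2 above both 48 h libraries. Dusp14 went from 1.43 ± 0.156 at 0 h to 2.19 ± 0.123 at 72 h and Dusp16 from 0.8696 ± 0.0621 at 0 h to 1.16 ± 0.0442 at 72 h. Of 13 tested Dusp genes 11 had a higher mean at 72 h than at 0 h, where the median ratio over all 9606 genes was 1.008. The 3 with a ratio of at least 1.3 are those chosen by the rule, so no rise of the family is read from these counts. Dusp18 had 1.52 and 1.48 at 0 h, 1.26 and 1.23 at 24 h, 1.201 and 1.22 at 48 h, and 1.17 and 1.23 at 72 h, with both 0 h libraries above the other 6.

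Further signalling members act at the membrane or on small GTPases. Gper1, a membrane receptor that responds to estrogens, had 1.23 and 1.27 at 0 h, 1.405 and 1.34 at 24 h, 1.66 and 1.56 at 48 h, and 2.18 and 1.94 at 72 h, in strict order (ratio 1.65). Dab2ip, a Ras GTPase-activating protein, had 1.45 and 1.34 at 0 h, 1.61 and 1.59 at 24 h, 2.07 and 1.98 at 48 h, and 2.36 and 2.43 at 72 h, also in strict order. Gem, a small GTPase that inhibits voltage-gated calcium channels, went from 1.05 ± 0.151 at 0 h to 1.78 ± 0.00546 at 72 h, and Asap1, an Arf GTPase-activating protein of focal adhesions, from 1.13 ± 0.171 at 0 h to 1.93 ± 0.146 at 72 h. Tns3, a tensin that links integrins to actin, went from 2.34 ± 0.04699 at 0 h to 3.84 ± 0.245 at 72 h and Nedd9, an adhesion scaffold, from 1.81 ± 0.0235 at 0 h to 2.72 ± 0.103 at 72 h. Asap1, Tns3 and Nedd9 were in strict order.

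Inpp5a, which removes the 5-phosphate of the second messenger inositol trisphosphate (chromosome 7, 139389109 to 139579652), had 6.41 and 6.28 at 0 h, 6.89 and 7.21 at 24 h, 7.36 and 7.56 at 48 h, and 8.35 and 8.96 at 72 h, in strict order (ratio 1.36). It overlaps the homeobox gene Nkx6-2 tail to tail, and 12.9% of the exonic bases of Nkx6-2 lie in exons of another gene. Nkx6-2 had 4.18 and 4.41 at 0 h, 4.82 and 4.64 at 24 h, 4.9997 and 4.91 at 48 h, and 5.88 and 5.96 at 72 h, in strict order as well (ratio 1.38). Wnt10a had 2.53 and 2.44 at 0 h, 2.68 and 2.51 at 24 h, 2.68 and 2.68 at 48 h, and 3.42 and 3.45 at 72 h. Its first 6 libraries lay within a narrow range and the 72 h pair stood above them. Lgals3bp, a secreted galectin-binding glycoprotein, had the same form, with 4.19 and 4.21 at 0 h, 4.62 and 4.27 at 24 h, 4.42 and 4.65 at 48 h, and 5.55 and 5.72 at 72 h. Cntfr, a subunit of the ciliary neurotrophic factor receptor, went from 1.68 ± 0.134 at 0 h to 2.37 ± 0.1801 at 72 h and Smad9, a transducer of BMP signals, from 1.296 ± 0.0862 at 0 h to 1.81 ± 0.0906 at 72 h. On a list of Wnt, TGF beta, BMP and Notch genes, 12 were tested and 1, Wnt10a, belongs to the set. The set holds 114 of all 9606 genes. At 72 h limma called 1 of the 12 higher, Wnt10a, and 0 lower (unadjusted p under 0.05: 1 higher and 2 lower). Over all genes it called 1.27% higher and 0.739% lower. Of the 12, 3 had a log2 change above 0, and the list's median was -0.04.

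On a list of transcription factors of endocrine and neural lineages, 28 were tested and 1, Foxo1, belongs to the set. The set holds 114 of all 9606 genes. limma called 0 of the 28 higher at 72 h and 1 lower, Sox4 (unadjusted p under 0.05: 6 higher and 12 lower). Over all genes it called 1.27% higher and 0.739% lower. The list's median log2 change was -0.11. Of the members that follow, Foxo1 was named from this list. Lbh and Nelfcd are not on it and were named for their ratio. Lbh, a transcription cofactor of limb and heart development (chromosome 17, 72918305 to 72941947), had 4.803 and 4.53 at 0 h, 4.06 and 5.38 at 24 h, 6.35 and 6.14 at 48 h, and 7.55 and 8.01 at 72 h (ratio 1.67). Its 24 h libraries straddled the 0 h libraries, and the 48 h and 72 h pairs were each above all earlier ones. Foxo1, a forkhead factor held out of the nucleus by insulin signalling, had 1.61 and 1.58 at 0 h, 1.59 and 1.83 at 24 h, 2.12 and 2.12 at 48 h, and 2.35 and 2.08 at 72 h (ratio 1.39), with the 48 h pair between the 72 h libraries and 24 h replicate 1 among the 0 h values. Foxo3 and Foxo4 had ratios of 1.08 and 0.986. Nelfcd, a subunit of the complex that pauses RNA polymerase II, had 6.19 and 5.95 at 0 h, 6.94 and 7.12 at 24 h, 7.87 and 8.24 at 48 h, and 8.897 and 9.15 at 72 h, in strict order (ratio 1.49).

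Members known as chromatin regulators, for which no list was used, include Mta3, a subunit of the NuRD complex that went from 0.948 ± 0.0208 at 0 h to 1.38 ± 0.106 at 72 h, Kdm5c, which removes methyl groups from histone H3 lysine 4 and went from 2.48 ± 0.114 at 0 h to 3.302 ± 0.0359 at 72 h, and Bcor, a corepressor of the Polycomb type that went from 1.41 ± 0.0119 at 0 h to 1.97 ± 0.0539 at 72 h. Jund, an AP-1 subunit, had 14.8 and 14.2 at 0 h, 17.3 and 14.1 at 24 h, 18.4 and 17.5 at 48 h, and 19.2 and 20.6 at 72 h (ratio 1.37), and 24 h replicate 2 was below both 0 h libraries. The antisense model Gm11175 lies wholly within Jund, 52.6% of the exonic bases of Jund are shared, and both went high and low in the same libraries, with Gm11175 at 14.5 and 11.9 at 0 h, 18.2 and 11.2 at 24 h, 20.3 and 18.8 at 48 h, and 20.3 and 23.5 at 72 h. Since the use of strand is not given, those 2 values cannot be separated. Junb and Jun had ratios of 1.28 and 1.14. Of 18 tested DNA methylation and demethylation genes, 0 met the rule, where the set holds 114 of all 9606 genes.

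Among imprinted genes, which are expressed from 1 parental copy, 4 of 12 tested are in the set, which holds 114 of all 9606 genes: Rtl1, Klf14, Peg13 and Impact. limma called Rtl1 and Klf14 higher at 72 h and 0 of the 12 lower (0 lower at an unadjusted p under 0.05 as well), where 1.27% of all genes were called higher and 0.739% lower. Both called genes were chosen on this contrast, and neither was called when any 1 of the 0 h, 48 h or 72 h libraries was left out. The list's median log2 change was 0.04. Klf14, a single-exon zinc finger gene, had 2.58 and 2.34 at 0 h, 2.75 and 2.97 at 24 h, 3.03 and 3.07 at 48 h, and 3.35 and 3.35 at 72 h, in strict order. Peg13, a noncoding RNA, went from 1.24 ± 0.0259 at 0 h to 1.67 ± 0.07996 at 72 h and Impact, a regulator of translation under amino acid shortage, from 1.28 ± 0.0269 at 0 h to 1.66 ± 0.112 at 72 h. Nap1l5, which is imprinted in mouse but was not on the list, went from 4.32 ± 0.02902 at 0 h to 6.14 ± 0.123 at 72 h, in strict order. The imprinted genes Mest and Copg2 also met the rule and were left out by name.

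Rtl1, a retrotransposon-derived gene of the imprinted Dlk1-Dio3 region (ENSMUSG00000085925.3, chromosome 12, 109589193 to 109600330, minus strand), had 4.97 and 4.79 at 0 h, 5.42 and 5.81 at 24 h, 6.07 and 6.32 at 48 h, and 6.39 and 6.82 at 72 h, in strict order (ratio 1.35). On the opposite strand, within its exon, lie most of the microRNA genes measured here, of a cluster known to come from the maternal copy and to guide cleavage of the paternal Rtl1 transcript. Mir3071 is the exception and is annotated on the minus strand, that of Rtl1 itself. MicroRNAs silence messages that pair with the seed, bases 2 to 8 of the mature strand. Of the 7 microRNA genes measured in this exon, Mir431, Mir434, Mir136 and Mir3071 met the rule. Their mature strands, shown because they distinguish these overlapping genes, follow with the seed in capitals (RefSeq, GRCm38.p6).
miR-431-5p: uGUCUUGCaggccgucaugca
miR-431-3p: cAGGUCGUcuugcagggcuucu
miR-434-5p: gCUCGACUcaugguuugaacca
miR-434-3p: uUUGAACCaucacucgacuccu
miR-136-5p: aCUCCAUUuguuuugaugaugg
miR-136-3p: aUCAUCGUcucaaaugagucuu
miR-3071-5p: aCUCAUUUgagacgaugaugga
miR-3071-3p: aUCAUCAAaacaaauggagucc
No seed is shared among these 8 strands. Mir136 (chromosome 12, 109595327 to 109595388) and Mir3071 (chromosome 12, 109595318 to 109595397) are read from opposite strands of the same stretch.

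Mir434 (chromosome 12, 109594506 to 109594599) had 7.72 and 7.69 at 0 h, 8.28 and 8.32 at 24 h, 9.25 and 8.96 at 48 h, and 10.2 and 10.9 at 72 h, in strict order. Mir431 had 3.81 and 3.603 at 0 h, 3.92 and 5.35 at 24 h, 4.39 and 5.36 at 48 h, and 5.42 and 6.11 at 72 h, and both of its higher libraries at 24 h and 48 h were replicate 2. Mir136 had 3.89 and 4.29 at 0 h, 4.97 and 5.23 at 24 h, 5.01 and 5.58 at 48 h, and 5.75 and 6.001 at 72 h and Mir3071 had 3.92 and 4.29 at 0 h, 4.98 and 5.24 at 24 h, 5.05 and 5.62 at 48 h, and 5.78 and 6.003 at 72 h. These 2 overlap in 62 bases, and their values were near-equal in every library. The other 3 microRNA genes missed the rule. Mir127 had its 72 h mean below its 48 h mean and a 72 h to 24 h ratio of 1.097, under the limit of 1.15. The ratios of 72 h to 0 h were 1.45 for Mir127, 1.41 for Mir433 and 1.28 for Mir432. In each of these genes all exonic bases lie within Rtl1, the libraries were made from long RNA without a step for small RNA in the labels, and reads of Rtl1, of an antisense precursor and of the hairpin cannot be separated. The maternally expressed RNAs of the region were at 0.0137 to 0.0428 (Meg3), 0.181 to 0.265 (Rian) and 0.0476 to 0.107 (Mirg) over the 8 libraries, and Dlk1 and Dio3 were at 0.00274 or lower.

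**Figure D4:**
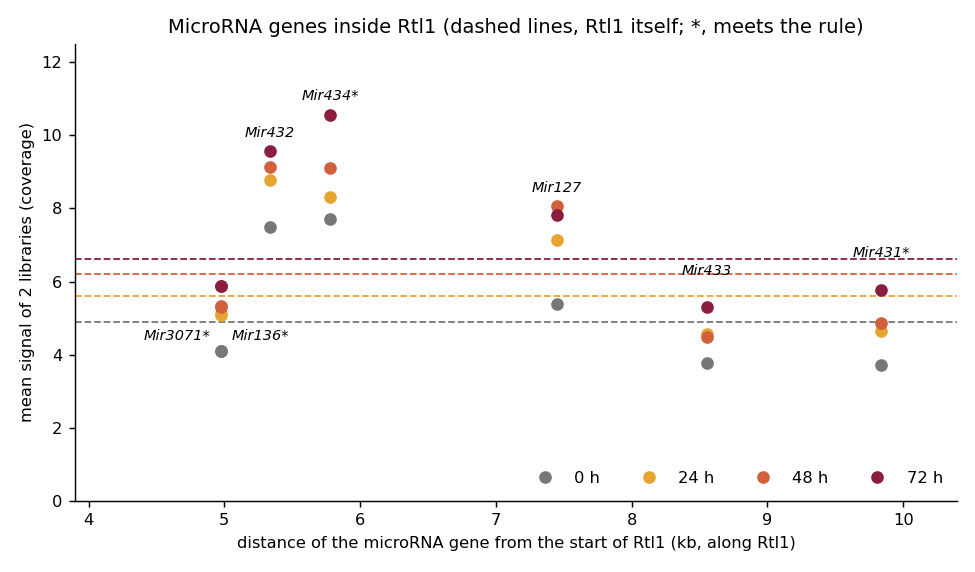
Points give the mean signal of 2 libraries at each time for the 7 microRNA genes inside Rtl1, placed by their distance from the start of Rtl1; dashed lines are the means of Rtl1, and an asterisk marks a gene that met the rule. At each gene the 0 h point is the lowest; at Mir127 the 48 h point is above the 72 h point.

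Lipid and cholesterol enzymes were few and of modest ratio. Of 23 tested cholesterol genes limma called 0 in either direction at 72 h (unadjusted p under 0.05: 7 higher and 1 lower). Over all genes it called 1.27% higher and 0.739% lower, so 0 in a list of this size says little. Sgms2, a sphingomyelin synthase, went from 2.54 ± 0.143 at 0 h to 3.46 ± 0.0812 at 72 h, Mboat2, which adds acyl chains to lysophospholipids, from 1.16 ± 0.00431 at 0 h to 1.66 ± 0.00875 at 72 h, and Hacd2, an enzyme of very long chain fatty acid synthesis, from 1.64 ± 0.128 at 0 h to 2.19 ± 0.185 at 72 h. Hsd3b7, an enzyme of bile acid synthesis, went from 2.14 ± 0.0327 at 0 h to 2.84 ± 0.0241 at 72 h, but 99.2% of its exonic bases lie in exons of another gene, so its reads are shared with the overlapping models.

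Some entries are models whose reads may come from elsewhere. Gm30505, an antisense model (chromosome 16, 22874983 to 22894386) had 6.84 and 6.84 at 0 h, 12.2 and 9.13 at 24 h, 11.02 and 11.5 at 48 h, and 14.3 and 13.1 at 72 h (ratio 2.0002), with 24 h replicate 1 above both 48 h libraries. Of its exonic bases 92.9% lie within the span of other genes, and it overlaps the ends of Dnajb11 and Ahsg, the latter left out by name. On chromosome X, Gm15027 and Gm14536 are unprocessed pseudogenes of 138 bases each, 9957 bases apart. Gm15027 had 15.1 and 6.75 at 0 h, 7.703 and 15.1 at 24 h, 17.1 and 11.8 at 48 h, and 19.9 and 16.1 at 72 h and Gm14536 had 10.8 and 5.94 at 0 h, 6.99 and 12.8 at 24 h, 13.1 and 9.96 at 48 h, and 16.4 and 14.7 at 72 h. In both, 0 h replicate 1 was above 24 h replicate 1 and the groups overlapped, so the order of their means is not that of their libraries.

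CT010467.2, on chromosome 17 at 39848103 to 39848827, beside the ribosomal RNA model CT010467.1, had the highest level of the set, with 1413 and 1497 at 0 h, 1413 and 1764 at 24 h, 1715 and 1597 at 48 h, and 1881 and 2034 at 72 h. In the files it overlaps CT010467.1 in 13.6% of its exonic bases, and CT010467.1 had 12.2 and 2.70 at 0 h, 1.84 and 82.9 at 24 h, 22.9 and 81.8 at 48 h, and 1.17 and 519 at 72 h. Ribosomal RNA signal thus varied between libraries of 1 group, and its part in the values of CT010467.2 was not tested.

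In all, 22 of the 114 genes (19.3%) have over 10% of their exonic bases in exons of another gene, against 21.6% of the 9606 genes. This leaves out introns: like those of Galns, Rhou and Zfp750, all exonic bases of Gper1, Nap1l5 and G6pdx lie within the span of other genes. Counting overlapping genes once gives 104 loci, and 16 genes share 6 of these. Chromosome 12 held 11 of the 114 genes among 355 tested there (3.1%), of which 5 are the Rtl1 locus, and chromosome X held 8 of 352.

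A property that the rule did not use is the base composition of the promoters. CpG dinucleotides are the sites of DNA methylation in mammals, and promoters without a CpG island are those where methylation commonly varies between cell types. RefSeq windows of 250 bases before to 50 after the start (GRCm38.p6, the most upstream start of each gene) were found for 70 genes of the set and 6384 tested genes. The observed over expected CpG ratio, CpG count times length over the product of C and G counts, had a median of 0.699 in the set and 0.810 over all tested genes. It was under 0.5 in 22 of 70 genes (31.4%), against 873 of 6384 (13.7%). Among 49 matched genes that met the mirrored rule for a steady fall, 9 (18.4%) were under 0.5, with a median of 0.770. The G and C content itself was near-equal, with medians of 60.3% and 61.3%.

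The lower CpG ratio held at each level of signal. Its median was 0.720 against 0.796 for means of 1 to 2, 0.696 against 0.810 for means of 2 to 5, and 0.636 against 0.837 for means of at least 5. With the window richest in CpG taken for each gene, 25.7% of the set and 10.9% of tested genes were under 0.5. With windows within 1000 bases of the gene's 5′ end in the files, the shares were 22.8% of 57 and 11.8% of 5817. These are shares over genes that are not independent of each other, and no test was made on them. Genes under 0.5 included Ephx1, Gstp2, Gper1, Ttyh1, Tmem176a, Tmem176b and Lgals3bp, and the ratio was above 1 in Foxo1, Nav1, Rhou, Cmip and Dusp14.

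**Figure D5:**
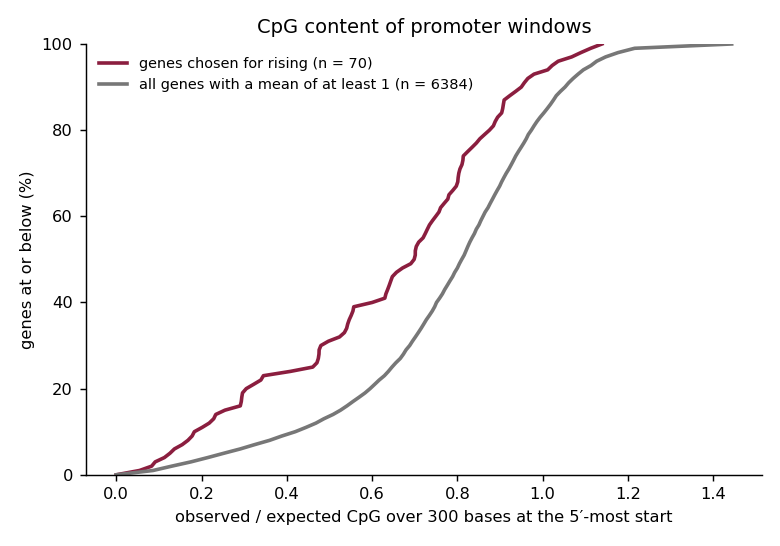
Cumulative share of genes (percent, vertical axis) at or below a given observed over expected CpG ratio (horizontal axis) for the 70 matched genes of the set and the 6384 matched tested genes. The curve of the set lies to the left: 31.4% of it is under 0.5, against 13.7% of tested genes.

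The range can be seen in 250 bases before the start of 4 genes, chosen after their values were seen to run from CpG-poor to CpG-rich and to touch no annotated exon. CG is in capitals, the strand is that of the gene, and the windows end 32 bases from the gene's 5′ end in the files for Sgms2 and right at it for the others.
Sgms2, chr3:131491444-131491693, minus strand: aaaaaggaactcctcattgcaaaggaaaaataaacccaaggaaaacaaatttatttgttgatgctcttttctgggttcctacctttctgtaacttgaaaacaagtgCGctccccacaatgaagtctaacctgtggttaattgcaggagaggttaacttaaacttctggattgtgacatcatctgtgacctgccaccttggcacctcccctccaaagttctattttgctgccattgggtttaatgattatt
Entpd3, chr9:120539568-120539817, plus strand: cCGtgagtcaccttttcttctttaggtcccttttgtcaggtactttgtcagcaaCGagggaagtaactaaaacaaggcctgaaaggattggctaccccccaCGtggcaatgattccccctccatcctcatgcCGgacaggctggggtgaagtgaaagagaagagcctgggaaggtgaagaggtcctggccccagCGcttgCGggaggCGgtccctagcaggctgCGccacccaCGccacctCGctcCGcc
Ece1, chr4:137861987-137862236, plus strand: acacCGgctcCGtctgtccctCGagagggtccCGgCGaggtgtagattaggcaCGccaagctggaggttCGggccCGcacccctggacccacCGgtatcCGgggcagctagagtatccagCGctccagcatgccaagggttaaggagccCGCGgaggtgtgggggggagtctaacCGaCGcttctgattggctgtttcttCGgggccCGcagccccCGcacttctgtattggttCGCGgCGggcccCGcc
Rhou, chr8:123653679-123653928, plus strand: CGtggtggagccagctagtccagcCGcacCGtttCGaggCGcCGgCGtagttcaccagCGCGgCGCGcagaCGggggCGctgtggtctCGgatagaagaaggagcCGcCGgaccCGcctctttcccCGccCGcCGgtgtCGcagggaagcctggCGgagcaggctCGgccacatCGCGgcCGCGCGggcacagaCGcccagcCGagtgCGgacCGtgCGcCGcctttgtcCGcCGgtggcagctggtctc
These hold 1, 11, 22 and 36 CG, and the ratios over the full windows are 0.0891, 0.554, 0.777 and 1.07. Over the same genes the 72 h to 0 h ratios of signal were 1.36, 2.27, 1.49 and 2.05, in no order with CpG content.

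Short motifs were searched on both strands of the same windows. The NF-kB letters GGGA and TTCC with 2 bases between were found in 1 of 70 windows (1.43%), that of Nfkbia, and in 1.44% of tested genes. The stretch is printed with that match in capitals, 29 bases before the start; it reads as the reverse complement of the letters searched.
Nfkbia, chr12:55492648-55492897, minus strand: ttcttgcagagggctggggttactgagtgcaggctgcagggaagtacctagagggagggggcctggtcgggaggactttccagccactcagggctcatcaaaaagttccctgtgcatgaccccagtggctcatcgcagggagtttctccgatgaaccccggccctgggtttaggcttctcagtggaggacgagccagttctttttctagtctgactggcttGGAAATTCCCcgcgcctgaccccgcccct
The AP-1 letters TGANTCA were found in 7 windows (10%), against 4.12% of tested genes, those of Entpd3, Foxn3, Gstp2, Inpp5a, Kdm5c, Parp16 and Tspan15. The forkhead letters TGTTTAC were in 3 windows (4.29%, against 2.24%), the homeodomain core TAATTA in 2 (2.86%, against 2.26%), the paired domain letters GTCACGC in 2 (2.86%, against 4.81%) and the E-box CACGTG in 4 (5.71%, against 10.9%). The core of the antioxidant response element, TGACNNNGC, was in 10 windows (14.3%, against 15.2%). The paired homeodomain letters TAAT and ATTA with 3 bases between were in 0 of 70 windows and in 0.141% of tested genes, and the full estrogen response element, GGTCA and TGACC with 3 bases between, was in 0 windows of either. A match is only these letters in this window.

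The limits of the rule cut through a continuous range. Just inside the first limit were Gm46349 and Impact, both with a ratio of 1.303 of 72 h to 0 h, and just outside were Cidea at 1.299 and Zc3hav1 at 1.297. At the second limit Mir3071 and Mir136 were inside, with 72 h to 24 h ratios of 1.152 and 1.153, and Psme2 and Ecd, at 1.146 and 1.144, outside. A further 67 genes missed only the first limit and 29 only the second, and 74 genes met the mirrored rule.

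Of the 39 gene lists used, 11 held at least 1 gene of the set. Lists with many tested genes and 0 in the set were ribosomal proteins (34 tested), nuclear oxidative phosphorylation (35), endoplasmic reticulum translocation and export (40), cell cycle progression (29), folding and stress of the endoplasmic reticulum (27) and glycolysis (26). The corticotrope markers had 10 tested genes and the melanotrope markers 3, again with 0 in the set. The set holds 114 of all 9606 genes, so 0 in lists of these sizes says little.

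Markers of the labelled cell type were present. Pomc had 634 and 623 at 0 h, 499 and 552 at 24 h, 548 and 539 at 48 h, and 662 and 679 at 72 h, with the 24 h and 48 h libraries below those of 0 h and 72 h. Tbx19, the factor that drives Pomc, went from 18.2 ± 0.656 at 0 h to 22.8 ± 0.5199 at 72 h. Of 10 tested corticotrope markers limma called 0 higher at 72 h and 2 lower, Nr3c1 and Nr4a2 (unadjusted p under 0.05: 4 higher and 3 lower). Over all genes it called 1.27% higher and 0.739% lower. Pax7, where reads of the transgene may be counted as well, went from 13.1 ± 0.252 at 0 h to 13.8 ± 0.677 at 72 h. Of 10 melanotrope markers 3 were at 0 in every library, among them Drd2. Fibroblast, immune, myogenic and endothelial markers were low. The summed signal of 9 fibroblast markers was 0.244 to 0.606 per library and of 9 immune markers 0.683 to 0.879. It was 0.993 to 1.17 for 9 myogenic markers and 1.09 to 1.81 for 7 endothelial markers. Of the fibroblast, immune and myogenic markers 0 reached a mean of 1. For 11 markers of other pituitary lineages the sum was 1.38 to 2.12. Sums were higher for 10 pituitary progenitor markers, 1 of them tested (29.4 to 38.1), and for 11 neuronal markers (52.3 to 71.9). In bulk RNA, fewer cells that express a gene and less RNA per cell cannot be told apart. Summed signal per library was 164236 to 178548, and the sources used here give no read depth.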

How the data were processed

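RNA from AtT-20 cells with ER-Pax7 was measured in 8 libraries, 2 at each of 0, 24, 48 and 72 h of tamoxifen, grouped by their labels. The values are a signal, deposited by the authors in normalized form and read here, from the values alone, as the mean coverage over the merged exons of a gene; how they were scaled, and the read depth, were not found in these sources, so no counting interval is stated. Per the submitters' processing notes the tools were HISAT2 2.2, SAMtools 1.12 and deepTools 3.5, with mm10 (GRCm38) as the build; strand use is not given there.

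Genes with a mean of at least 1 were tested with limma 3.58.1 in R 4.3.3 on log2(signal + 1), with a trend and group as the only term (4 residual degrees of freedom), and adjusted by the Benjamini-Hochberg method over 9606 genes at 0.05. Whether replicates came from separate cultures is not labelled, so the spread behind each p-value may be technical only. The fit was tested on simulated data. Gene models were compared with GENCODE M21, which holds 113 of the 114 gene IDs, and 111 have equal coordinates there.

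The members and the gene lists were chosen with earlier results of these data known. Named by rule were the 12 members with the highest 72 h to 0 h ratio among those with a mean of at least 5, the 6 highest with a mean of 1 to 5, the 6 with the highest mean, up to 4 per list, neighbours, and the 2 genes on either side of each limit. Other named genes, the gene families, the motifs and the printed promoters were chosen after their values were seen. A few genes that the rule would name are not reported here. Alternatives tried were 2 other scalings, other filters, ratios and pseudocounts, no trend, a replicate block, each replicate alone and each library left out. Tables were made with Python 3.11.15.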

Additional observations from a re-analysis of the deposited data

How the results depend on the processing

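The rule found 114 genes, 29 with a mean of at least 5, 563 with no filter, 40 with a ratio of at least 1.5, and 105 to 149 when 1 library was left out. Other scalings gave 117 (110 shared with the 114) and 107 (101 shared). Replicate 1 alone gave 120 genes, 59 of them shared, and replicate 2 alone 162, 65 of them shared. The count called higher at 72 h against 0 h was 64, 9 with no filter, which adds tests, and 0 to 82 with 1 library left out. At 48 h against 0 h, 11 genes were called, 5 after quantile normalization, 0 with no filter and 0 to 20 with 1 library left out. At 24 h against 0 h, 1 gene was called, 0 after trimmed mean rescaling, 0 with no filter and 0 to 1 with 1 library left out. At 72 h against 24 h the count was 0, and 0 to 8 with 1 library left out, the 8 without 24 h replicate 2. The cause of these changes was not tested. With the replicate number as a block, 52 genes were called at 72 h, 3 at 48 h and 0 at 24 h; deviations of same-numbered libraries correlated at -0.0163 to 0.402, over 0.1 in 3 of 6 pairs of times, so the numbers were not taken as pairs. For 43 named genes under 14 alternatives, 602 values in all, 432 kept their side of the threshold, 158 lost the call, 12 gained it and 0 changed direction. Low levels limit precision, since 59 of the 114 genes had a mean under 2.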
